A study of Mus musculus with 6 samples.

Results

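Among the 13264 targets measured in the stroma of mouse cholangiocarcinoma, 7 genes of ADP-ribosylation were followed: 5 linked to interferon responses (Parp9, Parp10, Parp12, Parp14 and Dtx3l) and 2 of DNA repair (Parp1 and Parp2). They were picked by symbol, with the difference between the genotypes already known, so their values in that contrast are a description. All 7 were found in the table. Tumours of the SB murine cholangiocarcinoma cell line were profiled by GeoMx, a spatial assay whose probes carry sequence tags that light cuts off within an outlined area, so that they can be collected and sequenced. The area taken in each region stained for Desmin and not for CD45, a choice aimed at fibroblasts of the tumour and stellate cells of the liver. Leukocyte transcripts were still measured there, as given at the end. Of the 6 regions, 3 carried the genotype label Cd274F/FCol1A1Cre (floxed-labelled) and 3 the label Cd274+/+Col1A1Cre (control-labelled). Both groups thus carried the Cre transgene that the Col1A1 name denotes, and Cre would act in the host cells that switch it on, not in cells without it. Cd274 is the gene of PD-L1, a brake on T cells. No label gives an age, a strain background or the animal a region came from, so some regions may come from the same animal, and every p-value below rests on regions and may be too small. Areas 11 to 13 were floxed-labelled and areas 14 to 16 control-labelled, on the same slide, so genotype cannot be told apart from that block of areas.

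ADP-ribosylation is the transfer of ADP-ribose from NAD to proteins or nucleic acids. PARP1 and PARP2 bind broken DNA and build chains of ADP-ribose that gather repair proteins. PARP10, PARP12 and PARP14 add single units, and their genes are known to respond to interferon. PARP9 pairs with DTX3L, a ubiquitin ligase of the Deltex family, and PARP9 and PARP14 carry macrodomains, folds that bind ADP-ribose. In RefSeq's gene table (assembly GRCm38.p6), Parp14, Dtx3l and Parp9 follow each other on chromosome 16 with 0 other protein-coding genes between them, and the spans of Dtx3l and Parp9 overlap by 558 bases.

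Promoter windows from RefSeq on GRCm38.p6, running from 250 bases before to 50 bases after the annotated start, were at hand for 4 of the 7 genes. They are shown because the interferon-linked and the repair genes are set against each other throughout. Each is written 5′ to 3′ along the gene's own strand, with the 50 bases from the start onward in capitals. The Dtx3l window is chr16:35938978-35939277 on the minus strand, that of Parp12 is chr6:39118300-39118599 on the minus strand, that of Parp1 is chr1:180568641-180568940 on the plus strand, and that of Parp2 is chr14:50807666-50807965 on the plus strand.
Dtx3l: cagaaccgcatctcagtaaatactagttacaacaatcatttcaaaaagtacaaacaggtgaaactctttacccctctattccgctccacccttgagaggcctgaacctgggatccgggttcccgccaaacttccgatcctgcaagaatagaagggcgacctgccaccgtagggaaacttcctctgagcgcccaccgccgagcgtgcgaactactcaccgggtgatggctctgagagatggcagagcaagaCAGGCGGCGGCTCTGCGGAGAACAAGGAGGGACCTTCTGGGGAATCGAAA
Parp12: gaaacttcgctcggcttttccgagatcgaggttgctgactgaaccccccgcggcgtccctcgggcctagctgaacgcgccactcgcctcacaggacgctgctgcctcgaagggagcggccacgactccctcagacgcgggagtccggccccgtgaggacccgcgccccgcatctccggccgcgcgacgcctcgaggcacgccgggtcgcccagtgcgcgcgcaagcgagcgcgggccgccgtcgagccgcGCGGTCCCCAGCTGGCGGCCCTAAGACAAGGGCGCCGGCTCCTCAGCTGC
Parp1: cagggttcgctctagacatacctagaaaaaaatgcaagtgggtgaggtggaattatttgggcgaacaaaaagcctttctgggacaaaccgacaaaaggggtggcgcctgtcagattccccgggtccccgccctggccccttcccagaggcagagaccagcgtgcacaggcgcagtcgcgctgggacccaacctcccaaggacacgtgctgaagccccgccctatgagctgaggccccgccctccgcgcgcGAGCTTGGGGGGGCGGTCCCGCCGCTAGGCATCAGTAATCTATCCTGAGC
Parp2: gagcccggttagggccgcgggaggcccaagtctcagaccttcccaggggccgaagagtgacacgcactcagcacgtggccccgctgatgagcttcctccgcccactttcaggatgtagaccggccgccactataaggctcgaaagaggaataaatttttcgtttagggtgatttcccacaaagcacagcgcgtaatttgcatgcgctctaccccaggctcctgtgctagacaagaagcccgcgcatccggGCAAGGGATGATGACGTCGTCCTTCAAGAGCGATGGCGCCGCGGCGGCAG

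The 4 windows were searched on both strands for TTCNNNGAA, the letters of a gamma-activated site, and for the core of an interferon-stimulated response element, a pair of GAAA runs with 2 free bases between them. Neither was found in the windows of Dtx3l, Parp12, Parp1 or Parp2, which says only that these letters are not in these 300 bases. Over all 32851 windows, 8.3% held the first motif and 3.44% the second. For comparison, the window of Stat2, which is not one of the 7 genes, held 1 match to the response element core, which begins 222 bases before the start. Stat2 was higher in the floxed-labelled regions, as given below. Windows of the other genes around the 7 are not given, so this match is a single picked example. It is shown in capitals, on the plus strand of chr10:128270261-128270300, and reads as the motif on the opposite strand.
Stat2: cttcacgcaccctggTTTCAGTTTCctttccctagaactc
GC content was 54.3% in the Dtx3l window and 73.7% in the Parp12 window, against 62.0% for Parp1 and 60.0% for Parp2. CpG dinucleotides numbered 17, 46, 20 and 25 in the windows of Dtx3l, Parp12, Parp1 and Parp2, where the median window held 7.

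As deposited, summed signal was 378554, 223253 and 393615 in floxed-labelled regions 1, 2 and 3, against 720786, 724323 and 1024178 in control-labelled regions 1, 2 and 3. The median target differed by -1.22 on the log2 scale, so each region was scaled to a common 75th percentile (Q3), after which it differed by 0.02. Signals below are Q3-scaled unless stated otherwise, log2 changes are floxed-labelled minus control-labelled on log2(signal + 1), and the fit was limma over all targets with Benjamini-Hochberg adjustment. Across targets, floxed-labelled region 2 correlated with every other region at Pearson's r of 0.678 to 0.799, against 0.922 to 0.941 among control-labelled regions. Floxed-labelled regions 1 and 3 were also less alike than the control-labelled regions, at 0.798 with each other and 0.824 to 0.860 with control-labelled regions. Floxed-labelled region 2 also had the lowest signal, and the 7 genes are therefore given without it too. Cd274 read 11.1, 17.4 and 29.2 in the floxed-labelled regions and 10.6, 14.2 and 13.4 in the control-labelled regions, so its level does not check the labels. Where its probe lies relative to the floxed part, the sources used here do not say.

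All 7 genes lay above the negative probe, which matches no mouse transcript, in all 6 regions. The signal ranged from 2.50 to 16.2 times the negative probe in the floxed-labelled regions and from 2.69 to 6.92 times in the control-labelled regions. Values in each column were whole multiples of a single step. If a step is 1 tag, the genes rested on 8 to 74 tags in floxed-labelled and 18 to 64 tags in control-labelled regions, and counting error alone is 11.6% to 35.4% of a value in the first and 12.5% to 23.6% in the second. Probes differ in how well they bind, so the signal of 1 gene is not set against that of another; only how it differs between regions is read.

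Parp14, a large macrodomain enzyme described in mouse lymphocytes as a partner of STAT6, showed the highest change of the 7 genes. Its signal was 48.1, 113 and 83.0 in floxed-labelled regions 1, 2 and 3, against 24.9, 25.6 and 32.9 in control-labelled regions 1, 2 and 3. Every floxed-labelled region lay above every control-labelled one, and the lowest floxed-labelled value was 1.46 times the highest control-labelled value. Mean signal was 81.5 ± 32.6 in floxed-labelled and 27.8 ± 4.42 in control-labelled regions (SD, n = 3 each), 2.93-fold, with a log2 change of 1.44 ± 0.30 (SE). The spread lay mostly in the floxed-labelled group. Without floxed-labelled region 2, where it was highest, the log2 change was 1.17 ± 0.27, and without floxed-labelled region 1, where it was lowest of its group, it was 1.78 ± 0.24.

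Parp9 and Dtx3l encode the partners of a complex that places ubiquitin on histones and signalling proteins, and their signals ran closely together. Parp9 read 38.9, 52.3 and 65.1 in the floxed-labelled regions, against 15.9, 22.2 and 23.1 in the control-labelled regions. Dtx3l read 46.3, 50.1 and 66.2 in the floxed-labelled regions and 18.1, 27.3 and 26.2 in the control-labelled regions. For both genes floxed-labelled region 3 was highest, control-labelled region 1 was lowest, and the groups did not overlap. Mean signal of Parp9 was 52.1 ± 13.1 and 20.4 ± 3.96, a log2 change of 1.30 ± 0.26 (SE). That of Dtx3l was 54.2 ± 10.6 and 23.9 ± 5.02 (SD, n = 3 each), a log2 change of 1.15 ± 0.25 (SE). Leaving out floxed-labelled region 2 gave 1.28 ± 0.29 for Parp9 and 1.20 ± 0.27 for Dtx3l.

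Parp10, a mono-ADP-ribosyltransferase first described as a partner of MYC, read 35.2, 43.5 and 43.7 in the floxed-labelled regions. In the control-labelled regions it read 18.1, 13.1 and 28.3, the widest scatter of the 7 genes in that group, with a coefficient of variation of 39.0%. The groups did not overlap, but control-labelled region 3 came within 1.24-fold of the lowest floxed-labelled region. The means were 40.8 ± 4.90 and 19.8 ± 7.73 (SD, n = 3 each), and the log2 change was 1.06 ± 0.29 (SE), or 0.81 without control-labelled region 2 and 1.34 without control-labelled region 3. Dropping floxed-labelled region 2 gave 1.01.

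Parp12 encodes a zinc-finger mono-ADP-ribosyltransferase with antiviral activity. Its signal was 35.2, 30.5 and 38.1 in the floxed-labelled regions and 15.1, 20.5 and 19.0 in the control-labelled regions. It was the most even of the 5 interferon-linked genes among floxed-labelled regions, with a coefficient of variation of 11.2%, and unlike Parp14 it was lowest in floxed-labelled region 2. Means of 34.6 ± 3.86 and 18.2 ± 2.79 (SD, n = 3 each) gave a log2 change of 0.89 ± 0.24 (SE), which was 0.98 without floxed-labelled region 2.

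Parp1, the main sensor of DNA breaks, read 37.0, 54.4 and 38.1 in the floxed-labelled regions, against 31.0, 29.0 and 27.8 in the control-labelled regions. Floxed-labelled region 2 stood above the rest, while the control-labelled regions lay close together, with a coefficient of variation of 5.52%. The means were 43.2 ± 9.75 and 29.3 ± 1.62 (SD, n = 3 each), a log2 change of 0.53 ± 0.24 (SE) that was 0.35 ± 0.22 without floxed-labelled region 2. Parp2, which shares the repair role, read 22.2, 17.4 and 23.6 in the floxed-labelled regions and 13.6, 18.8 and 15.9 in the control-labelled regions. Here the groups overlapped, since floxed-labelled region 2 lay below control-labelled region 2. Its means were 21.1 ± 3.23 and 16.1 ± 2.60 (SD, n = 3 each), with a log2 change of 0.37 ± 0.27 (SE), or 0.49 without floxed-labelled region 2. In floxed-labelled region 2, Parp2 read 2.50 times the negative probe and, if a step is a tag, rested on 8 tags.

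**Figure D1:**
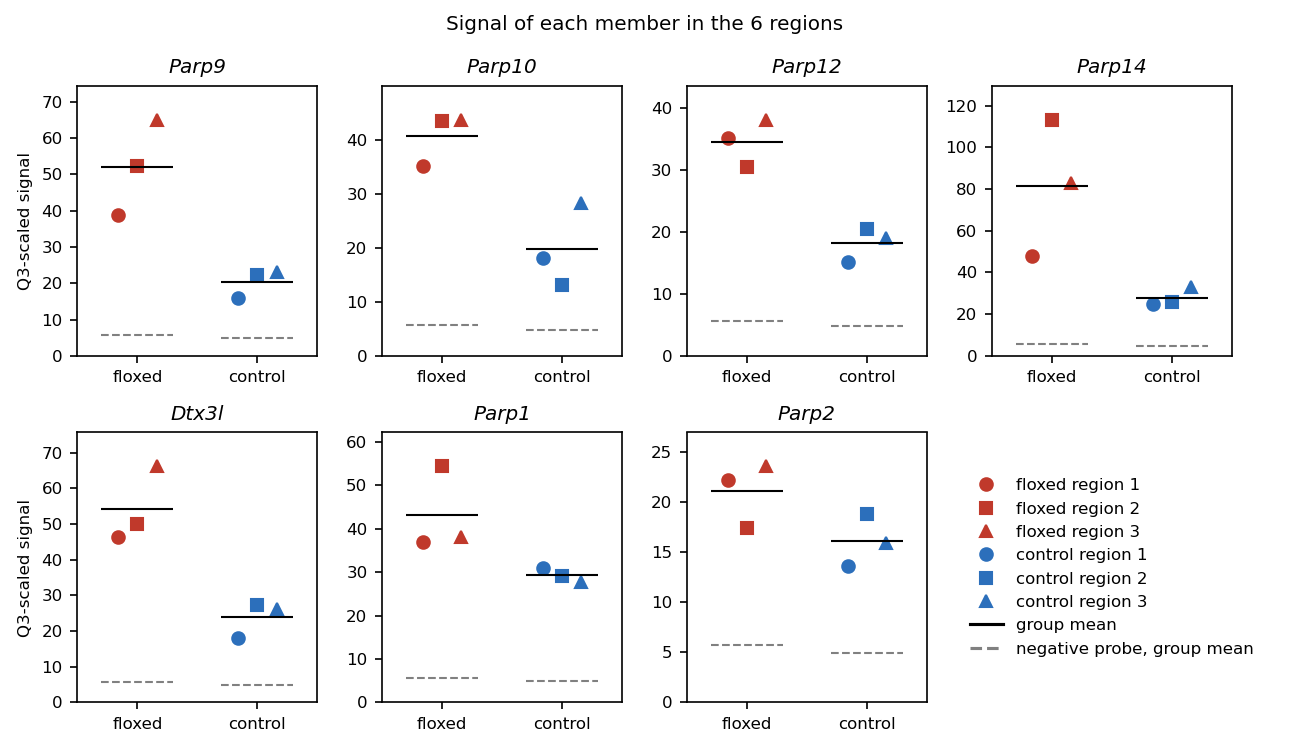
Q3-scaled signal (linear axis from 0) of the 7 genes in the 3 floxed-labelled and 3 control-labelled regions; points are regions, black lines group means and grey dashed lines the negative probe's group mean. Groups do not overlap for Parp9, Parp10, Parp12, Parp14, Dtx3l and Parp1, and they overlap for Parp2.

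Of the 7 genes, 6 had every floxed-labelled region above every control-labelled region, and 0 lay wholly below. Among all 13264 targets, 9.99% lay wholly above and 9.06% wholly below. Higher calls at an adjusted p under 0.05 (limma) numbered 1 of 7, Parp9, and lower calls 0 of 7, where 0.588% of all targets were called higher and 0.113% lower. Because this contrast was used to choose the genes, nothing is read from these counts. Parp9 lay at the threshold itself, with an adjusted p of 0.0499, and Parp14 beside it at 0.0538, on the other side of it. The other 5 had adjusted p of 0.0702 to 0.593, and 6 of the 7 had an unadjusted p under 0.05, as had 12.7% of all targets. Ranked by log2 change among all targets, Parp14 stood 94th, Parp9 152nd, Dtx3l 250th, Parp10 336th and Parp12 600th from the top, against 1987th for Parp1 and 3102nd for Parp2.

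On the deposited scale the same genes looked different, since nearly all targets were lower there: 74.7% were called lower and 0.158% higher. Log2 changes as deposited were 0.16 for Parp14, 0.02 for Parp9, -0.12 for Dtx3l, -0.21 for Parp10 and -0.37 for Parp12, against -0.75 for Parp1 and -0.87 for Parp2. All 7 lay above the median target's -1.22. Parp2 was the only one of the 7 called on that scale, as lower (adjusted p 0.0352, limma). The sign for Parp10, Parp12, Dtx3l, Parp1 and Parp2 thus depends on whether regions are scaled, and what is stated here of their direction is relative to the other targets. In bulk areas of this kind, fewer cells of a type and less RNA per cell cannot be told apart.

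A comparison within each region hardly depends on scaling. Here the mean log2 level of Parp1 and Parp2 was subtracted from that of the 5 interferon-linked genes in the same region. The difference was 0.48, 0.74 and 0.90 in floxed-labelled regions 1, 2 and 3, against -0.17, -0.14 and 0.26 in control-labelled regions 1, 2 and 3. Each floxed-labelled region lay above all the control-labelled ones, with means of 0.71 ± 0.21 and -0.02 ± 0.24 (SD, n = 3 each), 0.72 apart. As deposited, the distance was 0.71. Over the other scalings, subtraction of the negative probe, other pseudocounts and each region left out in turn, it ran from 0.63 to 0.87. Its zero point has no meaning, since it depends on the probes. Relative to the repair pair, Parp14 differed most between the groups, by 1.00, followed by Parp9 at 0.85, Dtx3l at 0.71, Parp10 at 0.62 and Parp12 at 0.45. Parp10 was the only one of the 5 whose difference from the repair pair overlapped between the groups: floxed-labelled region 1 stood at 0.28, and control-labelled region 3 at 0.41. Parp12 and Parp14 came near to overlapping. Parp12 stood at -0.02 in floxed-labelled region 2 and at -0.14 in the highest control-labelled region, and Parp14 at 0.73 in floxed-labelled region 1 and at 0.62 in control-labelled region 3.

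**Figure D2:**
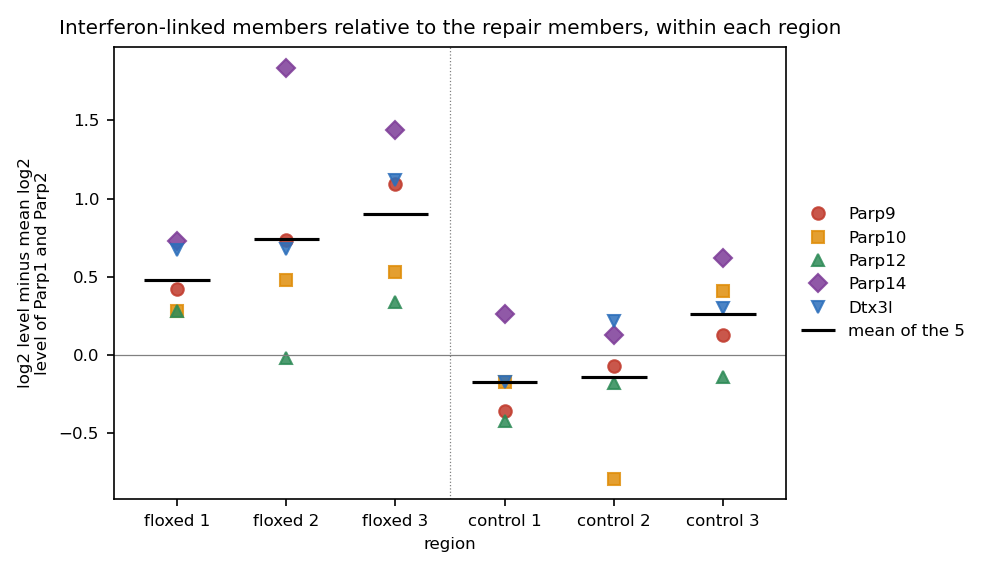
Log2 level of each interferon-linked gene minus the mean log2 level of Parp1 and Parp2, in each of the 6 regions; black bars are the mean of the 5 genes. The bars stand at 0.48 to 0.90 in floxed-labelled regions and at -0.17 to 0.26 in control-labelled regions.

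Ratios between single genes describe which of them kept step in these 6 regions. Their spread spans both groups, so it includes the difference between the groups that was known when the genes were chosen. It also includes counting error, 11.6% to 35.4% of a value in floxed-labelled regions if a step is 1 tag. Of the 21 pairs among the 7 genes, Parp9 and Dtx3l had the steadiest ratio over the 6 regions, with an SD of 0.14 on the log2 scale. If a step is 1 tag, counting error alone would be expected to give a wider spread than that. The closeness of this pair is therefore not read further. The signal of Parp9 over that of Dtx3l was 0.840, 1.04 and 0.983 in floxed-labelled regions 1, 2 and 3, against 0.875, 0.813 and 0.882 in control-labelled regions 1, 2 and 3. Parp12 and Dtx3l followed, with an SD of 0.20. The least steady pair was Parp14 and Parp2, with an SD of 0.80, whose ratio ran from 1.36 to 6.50. The highest of these was in floxed-labelled region 2, where Parp2 rested on 8 steps. Pairs of an interferon-linked and a repair gene had a median SD of 0.55 over 10 pairs, and pairs within the interferon-linked genes 0.42 over 10 pairs. Parp1 and Parp2 themselves had an SD of 0.39, close to the second of these values. Parp1 over Parp2 was 1.67, 3.13 and 1.62 in the floxed-labelled regions and 2.28, 1.55 and 1.74 in the control-labelled regions, so floxed-labelled region 2 alone stood apart.

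**Figure D3:**
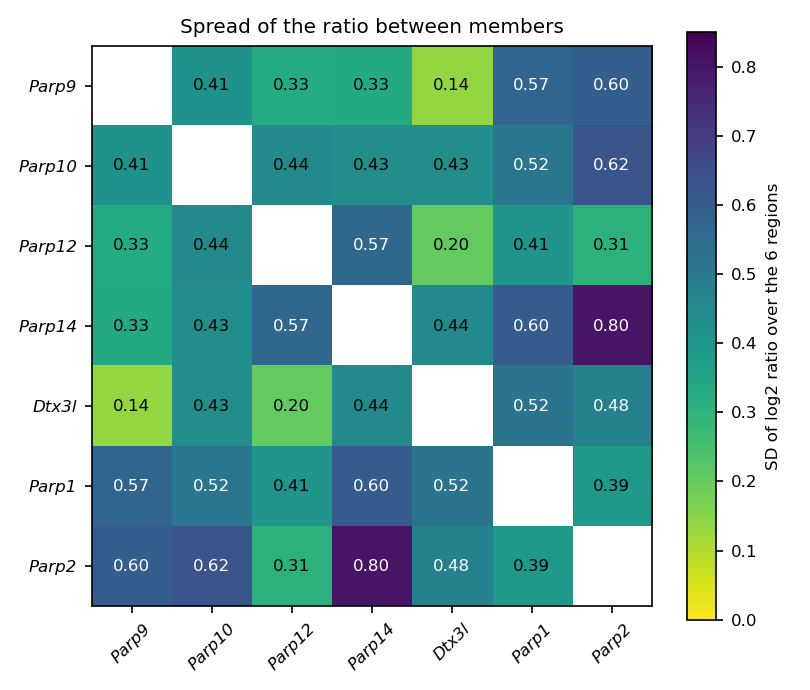
SD of the log2 ratio between each pair of the 7 genes over the 6 regions, as a colour scale with the value in each cell; smaller means that the genes kept a steadier ratio. Parp9 with Dtx3l has the smallest SD, 0.14, and Parp14 with Parp2 the largest, 0.80.

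Within the groups the interferon-linked genes did not all follow the same order. In the floxed-labelled group, region 3 was highest for 4 of the 5 genes and region 1 lowest for 4 of the 5, and Parp14 and Parp12 were the exceptions to these. In the control-labelled group, region 1 was lowest for 4 of the 5, with Parp10, lowest in region 2, as the exception. The targets whose pattern over the 6 regions was most like that of 6 of the genes were Saa2 for Parp9 (Pearson's r 0.994), Sppl2a for Dtx3l (0.998), Spag5 for Parp14 (0.998), Haao for Parp12 (0.997), Scin for Parp1 (0.997) and Zwint for Parp2 (0.993). These are descriptions over 6 points that fall into 2 groups. Dtx3l ranked 6th among all targets in likeness to Parp9 (r 0.990), whereas Parp2 ranked 5641st in likeness to Parp1 (r 0.29).

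In the rest of the PARP family, taken as a whole list with earlier results of these data known, none passed the test. Of 10 tested genes, 0 were called higher and 0 lower (limma, Benjamini-Hochberg), with 0 at an unadjusted p under 0.05. Over all targets 0.588% were called higher and 0.113% lower. At those shares, 0 calls in this list or in the short lists below says little about their genes. The median log2 change of these 10 was 0.11, against 0.02 for all targets, with 5 above 0 and 5 below. Zc3hav1 encodes the zinc-finger antiviral protein, a PARP without enzymatic activity that binds viral RNA and is itself known to respond to interferon. It read 24.1, 13.1 and 22.4 in the floxed-labelled regions and 14.4, 20.5 and 26.7 in the control-labelled regions, so the groups overlapped, and its log2 change was -0.05 ± 0.32 (SE, adjusted p 0.971, limma). Tiparp, a target of the aryl hydrocarbon receptor, read 13.0, 13.1 and 16.8 in the floxed-labelled regions, against 15.9, 14.8 and 16.5 in the control-labelled regions (log2 change -0.14 ± 0.28).

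Among the others, Parp16, an enzyme of the endoplasmic reticulum membrane, had the smallest p. It read 18.5, 28.3 and 20.2 in the floxed-labelled regions and 15.9, 13.1 and 17.0 in the control-labelled regions, without overlap, and its log2 change was 0.50 ± 0.27 (SE, adjusted p 0.468, limma), or 0.33 without floxed-labelled region 2. Parp6 also did not overlap, at 22.9 ± 0.948 and 18.4 ± 4.26 (SD, n = 3 each), but its lowest floxed-labelled value was just 1.03 times its highest control-labelled value. Its log2 change was 0.32 ± 0.26 (SE, adjusted p 0.645, limma), or 0.13 without control-labelled region 1. The tankyrases Tnks and Tnks2, which build poly-ADP-ribose on AXIN and telomere proteins, had log2 changes of -0.26 ± 0.34 and -0.35 ± 0.23. Parp3, a further DNA-break enzyme, had 0.27 ± 0.25 (0.081 without floxed-labelled region 2), Parp11 had 0.28 ± 0.28, Parp8 had -0.05 ± 0.26, and Parp4, whose signal averaged just 2.09 times the negative probe in floxed-labelled and 1.76 times in control-labelled regions, had 0.52 ± 0.52 (SE).

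**Figure D4:**
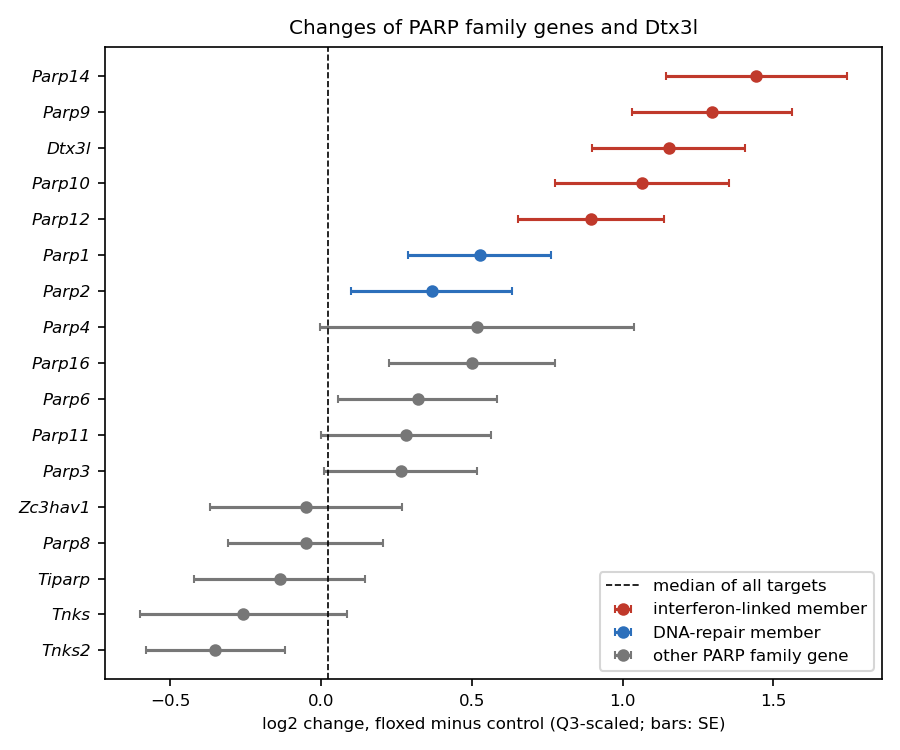
Log2 change (floxed-labelled minus control-labelled, Q3-scaled, bars SE) of the 5 interferon-linked genes, the 2 repair genes and the 10 other PARP family genes; the dashed line is the median of all targets. The interferon-linked genes lie at 0.89 to 1.44, the repair genes at 0.37 and 0.53, and the other family genes at -0.35 to 0.52.

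Among transcription factors that carry cytokine signals to such genes, Stat2 rose; the list it stands in was also drawn up with earlier results known. Stat2 read 53.7, 63.1 and 52.7 in the floxed-labelled regions and 14.4, 22.2 and 24.2 in the control-labelled regions. The groups did not overlap, and the log2 change was 1.46 ± 0.25 (SE, adjusted p 0.0236, limma). The call held without floxed-labelled region 1 (adjusted p 0.00386, limma) and was lost without any 1 of the other 5 regions, at adjusted p of 0.0567 to 0.153. Over all targets the first of these fits called 542 higher and 487 lower, and the others 15 to 69 higher and 0 to 11 lower. Irf9, the DNA-binding partner of STAT2, had a log2 change of 0.82 ± 0.26 (adjusted p 0.222, limma). Stat6, the factor that binds PARP14 in IL-4 signalling, read 66.6, 34.8 and 33.7 in the floxed-labelled regions and 50.6, 48.4 and 50.4 in the control-labelled regions, with a log2 change of -0.21 ± 0.27.

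Enzymes that remove ADP-ribose gave 0 calls among 7 tested genes, with a median log2 change of -0.14. Parg, which trims poly-ADP-ribose chains, read 14.8, 37.0 and 28.0 in the floxed-labelled regions and 26.4, 18.2 and 20.1 in the control-labelled regions (0.22 ± 0.33). Enpp1, an ectoenzyme that also cleaves cyclic dinucleotides, was lower in every floxed-labelled region, at 27.3 ± 5.53 against 41.8 ± 9.35 (SD, n = 3 each), with an adjusted p of 0.364 (limma). Adprhl1, a relative of the ADP-ribose hydrolases, had 0.52 ± 0.35, and Adprs, which takes ADP-ribose off serine, had -0.28 ± 0.28 (SE). Of 6 genes for readers of ADP-ribose 0 were called, and Macroh2a1, a histone variant with a macrodomain, had 0.54 ± 0.22 (SE, adjusted p 0.348, limma). Rnf146, a ubiquitin ligase that reads poly-ADP-ribose, had -0.23 ± 0.28, and Chd1l, a chromatin remodeller with a macrodomain, 0.20 ± 0.25.

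Repair partners of PARP1 showed no calls either, which says little in lists of this size at the shares over all targets given above. Among 10 tested genes of single-strand break repair the median log2 change was 0.23, and among 13 of double-strand break repair it was 0.25. Hpf1, the cofactor that directs PARP1 and PARP2 to serine, had 0.50 ± 0.38, which was 0.94 without floxed-labelled region 1 and 0.14 without floxed-labelled region 3. Xrcc1, the scaffold that poly-ADP-ribose recruits, had 0.33 ± 0.29, and Lig3, the ligase that binds XRCC1, 0.45 ± 0.34 (SE). Timeless, a replication fork protein that binds PARP1, came nearest to a call in the first list, at 20.4, 37.0 and 24.7 in the floxed-labelled regions against 12.8, 10.8 and 11.8 in the control-labelled regions (1.10 ± 0.29, adjusted p 0.139, limma). It was called without floxed-labelled region 1, at 1.29 (adjusted p 0.0156, limma). Over all targets that fit called 542 higher and 487 lower, against 78 and 15 with all regions. The same holds for the calls of Xrcc5 and H2ax without that region. Xrcc5, the Ku80 subunit, read 29.6, 13.1 and 10.1 in the floxed-labelled regions, where region 1 differed from the other two, and 27.2, 27.3 and 26.7 in the control-labelled regions (-0.74 ± 0.35), and it was called lower without floxed-labelled region 1, at -1.17 (adjusted p 0.0160, limma). Brca2, of homologous recombination, had 0.68 ± 0.41, and H2ax, the histone phosphorylated at breaks, 0.50 ± 0.35 (SE), which became a call at 0.94 when floxed-labelled region 1 was dropped (adjusted p 0.0356, limma).

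Among genes that supply or spend NAD, the substrate of the enzymatically active PARPs, none was called. Of 8 tested supply genes, Qprt, of the route from tryptophan, had the highest change, at 21.5 ± 4.55 against 10.8 ± 2.81 (SD, n = 3 each) with an adjusted p of 0.245 (limma). Nampt, the rate-limiting enzyme of NAD salvage, had 0.35 ± 0.23 and Slc25a51, the mitochondrial NAD carrier, -0.40 ± 0.26 (SE). Of 11 NAD consumers other than PARPs, Bst1, an ecto-enzyme of stromal and myeloid cells, read 24.1, 34.8 and 84.1 in the floxed-labelled regions and 20.4, 15.4 and 12.3 in the control-labelled regions (1.34 ± 0.39, adjusted p 0.175). Its change was 0.84 without floxed-labelled region 3. Without floxed-labelled region 1, where 542 of all targets were called higher and 487 lower, it was called at 1.72 (adjusted p 0.00675, limma). Its relative Cd38 had the opposite sign, with 14.3 ± 5.05 and 25.1 ± 5.94 (SD, n = 3 each), its log2 change being -0.80, or -0.51 without floxed-labelled region 2. So had Sirt2, a deacetylase, with 28.7 ± 0.841 and 42.2 ± 4.02, and neither was called. The other 4 Deltex ligase genes gave 0 calls, with log2 changes of -0.53 ± 0.35 for Dtx2, 0.66 ± 0.50 for Dtx1 and -0.37 ± 0.30 for Dtx4 (SE). Of 2 tested extracellular ADP-ribosyltransferases, neither called, Art3 had -0.25 ± 0.34, and Art4 read 24.0 ± 12.9 and 12.2 ± 1.46 with an adjusted p of 0.366 (limma). Over all 76 tested genes around the 7, 2 were called higher, Stat2 among them, and 0 lower. Of all targets 0.588% were called higher and 0.113% lower. Among the 76, 8 higher and 3 lower genes had an unadjusted p under 0.05. These are 14.5% of the 76, near the 12.7% of all targets. Of 39 of these genes refitted with each region left out, 27 changed sign or moved by over 1.5 times at least once, and 18 did so without floxed-labelled region 2. Leaving out each of the other regions also moved some genes. Changes near 0, such as -0.05 for Parp8, pass that mark with a small shift.

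Marker genes of other cells were set beside the interferon-linked genes. Of 9 marker lists, the summed signal of 7 tested T and NK cell markers placed the 6 regions in the same order as the mean log2 level of the 5 interferon-linked genes, and none of the other 8 lists did. That sum was 74.0, 163.3 and 163.8 in floxed-labelled regions 1, 2 and 3, against 51.4, 58.1 and 62.7 in control-labelled regions 1, 2 and 3, and the interferon-linked mean was 5.37, 5.74 and 5.86 against 4.26, 4.47 and 4.73. Floxed-labelled regions 2 and 3 are practically tied in the marker sum, and only Trac and Cd4, 2 of the 7 markers, held that order on their own. Cd8a was 16.7, 17.4 and 11.2 in the floxed-labelled regions, lowest in region 3. In floxed-labelled region 1, Nkg7 read 3.70, which is 0.776 times the negative probe and below its 6.04, 7.97 and 9.77 in the control-labelled regions. Cd3e read 7.40 there, below its 12.1 in control-labelled region 1. The order was noticed after the values were seen, and the part of T and NK cells in the result was not tested. Of these 7 markers 0 were called, 0 were at 0, and 0 averaged under 2 times the negative probe in floxed-labelled regions, against 6 in control-labelled ones. Ptprc, which encodes the CD45 protein used to leave cells out, read 29.6, 58.8 and 55.0 in the floxed-labelled regions and 21.2, 26.8 and 30.3 in the control-labelled regions.

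**Figure D5:**
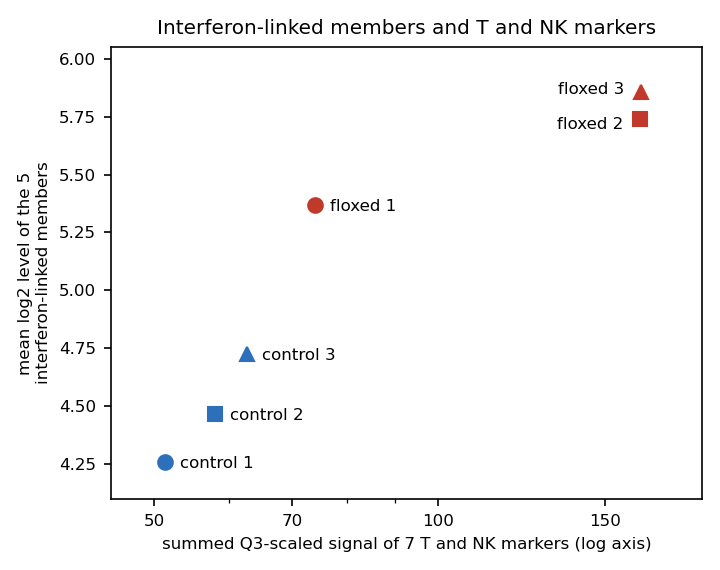
Mean log2 level of the 5 interferon-linked genes against the summed Q3-scaled signal of 7 T and NK markers (log axis), 1 point per region. Both are lowest in control-labelled region 1 (51.4 and 4.26) and highest in floxed-labelled region 3 (163.8 and 5.86), and floxed-labelled regions 2 and 3 are nearly tied in the marker sum.

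Other marker sums ran differently. The calls given with them stand beside 0.588% of all targets called higher and 0.113% called lower. Macrophage markers summed to 492 to 822 in floxed-labelled and 326 to 670 in control-labelled regions, with 1 of 9, Lyz2, called higher, and dendritic cell markers to 50.1 to 84.1 and 31.4 to 47.3, with 0 of 3 called. B and plasma cell markers summed to 211 to 1805 and 46.8 to 63.2, with Igkc and Jchain of 5 called higher, and hepatocyte markers to 2073 to 7988 and 3140 to 4175, with Fabp1 of 5 called higher. Neutrophil markers were lower, at 59.2 to 87.1 and 119 to 154, with S100a8 and S100a9 of 5 called lower. Sums of tumour epithelium and cholangiocyte markers were 1165 to 1858 and 1886 to 2730, and those of endothelium 105 to 213 and 92.2 to 296, with 0 called. The fibroblast and stellate markers, the cells the mask was aimed at, summed to 3556 to 5113 in floxed-labelled and 6072 to 8481 in control-labelled regions, with 0 of 10 called. Des, which encodes the stained protein, read 22.2, 41.4 and 46.0 in the floxed-labelled regions and 24.9, 40.4 and 28.8 in the control-labelled regions, so its groups overlapped. The part of these cells in the values of the PARP genes was not tested.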

How the data were processed

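Tags of the GeoMx mouse whole transcriptome probes were sequenced from Desmin-positive, CD45-negative areas, per the labels' protocols. The authors deposited 1 signal value per target and region. The sources used here do not say how tags were counted, targets kept or values scaled. Per the values, 99.98% in each column were whole multiples of 1 step (within 0.01 step), but the smallest value was 1 to 4 steps, which is why count models were avoided. No column of values was left out.

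Regions were scaled to the geometric mean of their 75th percentiles. The fit used limma 3.58.1 in R 4.3.3 (lmFit and trended eBayes) on log2(signal + 1), 3 against 3 regions. Targets had to average above the negative probe, which all 13264 did. P-values were adjusted by Benjamini-Hochberg over all of them. With 3 regions a group, the smallest p an exact two-sided permutation test allows is 0.1. The fit was tested on simulated data.

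The members, the lists around them and the markers were chosen with earlier results of these data known. Named were the 7 genes, of each list the called genes and the 3 with the smallest p, and the 5 targets most like each gene, of which the first is printed. Some genes that this rule names are not reported here. Parp3, Parp4, Parp8, Parp11, Tnks, Tiparp, Zc3hav1, Parg, Xrcc1 and Stat6 fall outside that rule and were named after their values were seen. Marker genes that are named are those called, with Des, which encodes the stained protein. Trac, Cd4, Cd8a, Nkg7 and Cd3e were not called and were named after their values were seen. Symbols are those of the table. The reference gene table and promoter windows are RefSeq, GRCm38.p6; the sources used here do not give the study's own build. Alternatives were other scalings, pseudocounts of 0.5 and 5, filters, subtracting the negative probe, variance models, weights per region, an adjusted p under 0.1, and dropping each region in turn. Figures were drawn with matplotlib 3.10.9.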

Additional observations from a re-analysis of the deposited data

How the results depend on the processing

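No paired analysis was possible because the labels give the regions no shared replicate numbers, and count models were not run because what 1 step stands for is not given. The distance between interferon-linked and repair genes was 0.63 to 0.87 in 13 alternatives (0.72 as reported). It is a difference within a region, so a rescaling of whole regions can hardly change it, and those alternatives say little. The genes were chosen with this contrast known, so the distance is a description. The number of the 7 genes called higher, 1 as reported, was 0 as deposited, with quantile normalization, a common negative probe, the negative probe subtracted, a filter at 2 times the negative probe, a pseudocount of 0.5 and no mean-variance trend, 2 with robust variances, 3 at an adjusted p under 0.1 and 5 with region weights. With a region left out it ran from 0 to 4, with 4 without floxed-labelled region 1 and 0 without any 1 of the others. Of the 7 genes, 1 was called lower as deposited, against 0 as reported. Calls over all targets moved as well. They were 78 higher and 15 lower as reported, 365 and 330 with region weights, and 542 and 487 without floxed-labelled region 1. Without any 1 of the other regions they were 15 to 69 higher and 0 to 11 lower. These moves of the whole table stand beside the counts for the 7 genes and for the 76 genes around them, and nothing is read from those counts. Without a mean-variance trend limma called 0 of all targets, with 1577 at an unadjusted p under 0.05. Of the 76 genes around them, 2 called higher as reported became 0 as deposited, with a common negative probe and with no trend, and 4 with region weights. With a region left out they ran from 0 to 5 (5 without floxed-labelled region 1, 1 without floxed-labelled region 2, 0 without floxed-labelled region 3 or any 1 control-labelled region). Lower calls, 0 as reported, were 53 as deposited, 1 with region weights, and 0 to 1 with a region left out. As deposited, where the median target moved by -1.22, signs turned for Parp10 (-0.21), Parp12 (-0.37), Dtx3l (-0.12), Parp1 (-0.75), Parp2 (-0.87), Parp3 (-0.999), Parp4 (-0.66), Parp6 (-0.93), Parp11 (-0.96), Parp16 (-0.75), Parg (-1.04), Macroh2a1 (-0.75), Timeless (-0.14), Hpf1 (-0.74), Xrcc1 (-0.90), Qprt (-0.29), Art4 (-0.42), Irf9 (-0.45), Adprhl1 (-0.68), Chd1l (-1.05), Lig3 (-0.76), Brca2 (-0.51), H2ax (-0.78), Nampt (-0.94) and Dtx1 (-0.52). Values near 0 also turned: with a region left out, Parp8 ran from -0.26 to 0.14 (above 0 without floxed-labelled region 3 or control-labelled region 1), Tnks from -0.58 to 0.0050 (highest without floxed-labelled region 2), Parg from -0.058 to 0.57 (lowest without floxed-labelled region 2) and Zc3hav1 from -0.27 to 0.21 (above 0 without floxed-labelled region 2 or control-labelled region 3), and Zc3hav1 was 0.0026 with region weights. Apart from the shared shift of the deposited scale, the cause of these moves was not tested.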
